A study of Mus musculus with 14 samples.

Results

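3T3 is a mouse fibroblast line that is grown in culture. Its poly(A) sites are described here beside those of 6 mouse tissues. The data are libraries made by 3P-seq, a method that sequences the 3′ ends of poly(A) RNA, in which short tags mark the position where a transcript was cleaved and given its poly(A) tail. The comparison takes 7 of the 14 libraries of the series, 1 from 3T3 and 1 each from wild-type heart, kidney, liver, lung, muscle and white adipose tissue. The labels give the genetic background 129S5/SvEvBrd for the tissues and also for 3T3, and the extract protocol calls the line NIH3T3, which is known as a line from Swiss mouse embryos. The age of the mice was not given in the labels used here. The same 6 tissues from miR-22 knockout mice and 1 library of mouse embryonic stem cells (mESC) stood outside the calls and are quoted beside them. The series has no biological replicates, so no test between 3T3 and tissues was possible. Values carry intervals for counting error alone, and a single culture of a single line stands for 3T3.

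Cleavage and polyadenylation end nearly every protein-coding transcript. Many genes hold several poly(A) sites in their last exon, and use of an upstream (proximal) site gives a shorter 3′ untranslated region than use of a downstream (distal) site. The longer form carries additional binding sites for microRNAs and RNA-binding proteins. Dividing and transformed cells are known for a greater use of proximal sites than resting tissue.

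The 3T3 library held 4236185 tags in 69893 intervals, and the tissue libraries held between 2852376 tags in white adipose tissue and 4608410 in lung. Intervals reached 32 nt in 3T3 and in mESC and 36 nt in the wild-type and knockout tissues. The part of this in the results was not tested. Mitochondrial sites took 7.34% of the 3T3 tags (exact 95% interval 7.31 to 7.36), between the 5.66% of liver and the 12.3% of white adipose tissue. Heart, muscle and kidney were higher at 22.3% to 22.7%, and lung was lowest at 3.52%. In 3T3, 312 intervals held 50% of the nuclear tags, against 34 in muscle and 648 in lung. A level is given in CPM, tags per 1000000 tags after TMM scaling. It is relative to the scaled size of a library, 0.579 (muscle) to 1.54 (lung) times its tags, and is not a plain share of them. As a relative level, it cannot tell fewer cells of a type from less RNA per cell.

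Chromosome Y was nearly empty in 3T3. Its sites had 7 tags in 3T3, 478 in heart, 436 in muscle, 696 in liver, 992 in lung, 500 in white adipose tissue and 503 in kidney. Per 1000000 tags this was 1.65 in 3T3 (0.664 to 3.4) and 107.2 to 215.2 in the tissues, with no overlap. The site with most of these tags, at position 365034 on the plus strand, had 6 tags in 3T3 and 287 to 707 in a tissue. Of the 61 chromosome Y sites found in the tissues, 2 had a 3T3 tag. The 6 knockout tissues had between 158 and 1255 chromosome Y tags, and mESC had 3081.

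Merging the intervals over the 7 libraries gave 144968 sites, of which 28185 passed the filter on low values. Of the 56071 sites with a 3T3 tag, 18400 had a tag in all 6 tissues as well, and these shared sites held 94.2% of the 3T3 tags. The 10689 sites with tags in 3T3 and in no tissue held 0.761%. In the other direction, 3144 of the 21544 sites found in all 6 tissues had no 3T3 tag. 3T3 thus drew nearly all its tags from sites with at least 1 tag in each tissue. Some of these were nearly empty in the tissues. The site on chromosome 8 minus at 4735977, for example, had 1716 tags in 3T3 and 2 to 5 in a tissue.

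The ranks of site abundance in 3T3 were nearest to those of white adipose tissue. Across the 28185 sites, Spearman's rho with 3T3 was 0.565 for white adipose tissue, 0.519 for muscle, 0.509 for lung, 0.471 for heart, 0.449 for kidney and 0.408 for liver. These values describe sites within libraries, which are not independent replicates. Between tissues rho ranged from 0.471 to 0.755. The median rho of 3T3 with the other 6 libraries was 0.490, the lowest of the 7, with liver just above it and white adipose tissue the highest at 0.655. Of 5812 sites at 20 CPM or more in 3T3 or white adipose tissue, 1953 (33.6%) were at least 4-fold higher in 3T3 and 1482 (25.5%) at least 4-fold lower. Against liver the order turned, with 1941 of 6564 sites (29.6%) higher in 3T3 and 2269 (34.6%) lower.

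A site was called higher in 3T3 at 20 CPM or more there and at least 4-fold above the highest tissue, and lower at 20 CPM or more in the lowest tissue and at least 4-fold below it in 3T3. By this rule 1027 sites were higher in 3T3, which is 3.64% of the 28185, and 267 were lower, which is 0.947%. The same rule was applied to each tissue against the other 6 libraries, 3T3 included, which could prevent a call. It gave 205 to 669 higher sites (0.727% to 2.37%, liver the most) and 4 to 23 lower sites (0.0142% to 0.0816%). At least 16-fold differences were seen at 283 higher (1%) and 106 lower sites (0.376%), and at least 64-fold ones at 58 (0.206%) and 26 (0.0922%). Of the 28185 sites, 1777 passed the filter through 3T3 alone, and 155 of the higher sites were among them. Without those, 872 of 26408 sites (3.3%) were higher.

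**Figure D1:**
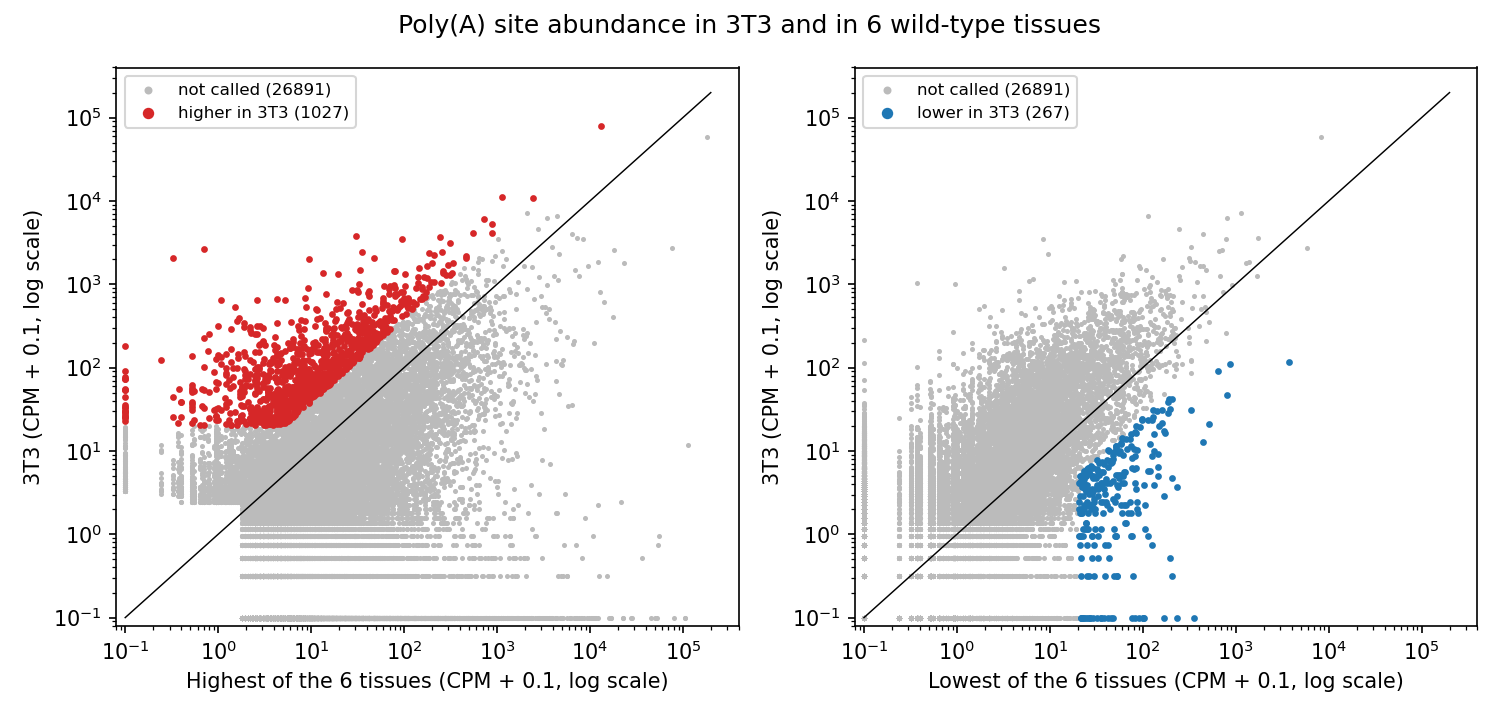
Each point is 1 of 28185 sites, with its level in 3T3 on the vertical axis and the highest (left) or lowest (right) of the 6 tissues on the horizontal axis, in CPM plus 0.1 on log scales. The black line marks equal levels, and the 1027 red and 267 blue sites are those at least 4-fold above or below it with 20 CPM or more on the higher side.

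The higher sites made up 38.3% of all 3T3 tags, and 29.5% without the most abundant of them. The same sites held between 1.09% of the tags in muscle and 3.49% in lung. The lower sites held 0.206% of the 3T3 tags and 9.32% to 14.7% of those of a tissue. In the 6 knockout tissue libraries, which entered neither call, 907 of the 1027 higher sites were at least 4-fold below 3T3 in every library. Of the 267 lower sites, 215 were at least 4-fold above 3T3 in every knockout library. Most calls in each direction were thus seen against a second set of tissue libraries too.

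At 1046 sites all 7 libraries reached 20 CPM, and 3T3 lay within the range of the tissues at 506 of them. It was above the highest tissue at 332 (31.7%) and below the lowest at 208 (19.9%). At the other extreme, 20 of the 4114 sites that reached 20 CPM in 3T3 had no tag in any tissue. Of the 1404 sites that reached 20 CPM in all tissues, 26 had no tag in 3T3.

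Sites are named by chromosome and strand (plus or minus) with the position of their 3′ end in mm9. No gene is given for them, because the gene table used here belongs to another build. For the same reason the fibroblast label could not be checked against Hmga2, a chromatin protein of embryonic and dividing cells, Fosl1, a subunit of the AP-1 transcription factor, or Il1rl1, the receptor of interleukin 33.

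With tissue values under 3 tags raised to 3 tags, the site of largest ratio lay on chromosome 1 plus at 40504987, at 2056-fold. It had 2621 CPM in 3T3 (12361 tags), 0.282 in lung, 0.602 in white adipose tissue and 0 in heart, muscle, liver and kidney, the tissues adding up to 4 tags. On the tags as counted 3T3 was 4358-fold above white adipose tissue (exact 95% interval 1206 to 35990, wide because that tissue had 2 tags). The knockout tissues had 0.307 CPM in lung and 0 elsewhere, and mESC had 5.05 CPM. A cluster of 3T3 sites lay around it on the same strand. The sites at 40503567, 40504847 and 40505041 had 72.3, 30.3 and 14.6 CPM in 3T3 and no tag in any tissue or in mESC.

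The second lay on chromosome 10 minus at 119798323, at 1607-fold with the same limit of 3 tags. It had 2049 CPM in 3T3 (9663 tags), 0.141 in lung, 0.224 in kidney and 0 in the other 4 tissues, the tissues adding up to 2 tags. On the tags as counted 3T3 was 9152-fold above kidney (1642 to 361522), an interval that holds the ratio of the first site. No knockout tissue had a tag there, and mESC had 124.0 CPM. A weaker site 2708 nt upstream, at 119801031, had 9.33 CPM in 3T3, 1.01 in mESC and no tissue tag. This position was thus filled in both cultured cell libraries and almost empty in 12 tissue libraries.

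The third, on chromosome 19 plus at 5455944, had 644.7 CPM in 3T3, 0.419 in heart, 0.985 in lung, 0.602 in white adipose tissue, 0.224 in kidney and 0 in muscle and liver. 3T3 was 654.3-fold above lung (317.2 to 1629). The knockout tissues reached 1.21 CPM in liver, and mESC had 22.5 CPM. The next site downstream, 9106 nt away at 5465050, was found in every library, with 60.2 CPM in 3T3 and 10.3 to 46.6 in the tissues. The excess of 3T3 was thus far smaller at the neighbour.

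A further pair of sites on chromosome 10 differed in mESC. The site on the minus strand at 68801052 had 529.8 CPM in 3T3, 0 in muscle and 0.805 to 1.41 in the other tissues, a ratio to lung of 376.3 (204.3 to 785.8), which was 211.1 against the knockout tissues. mESC had 459.1 CPM there, close to 3T3. The site on the plus strand at 99563044 had 648.9 CPM in 3T3, 0 in muscle and 0.268 to 2.53 in the other tissues, a ratio to lung of 256.1 (161.8 to 432.7). mESC had 3.79 CPM there, close to the tissues. A site 138 nt upstream of it, at 99562906, had 11.5 CPM in 3T3 and 18.4 in lung, so 3T3 was not the highest library at that neighbour.

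The other 10 of the 15 sites of largest ratio had 228.6 to 2027 CPM in 3T3. The most abundant of these, on chromosome 15 minus at 43081598, had 2027 CPM in 3T3, 5.45 in heart, 9.35 in muscle, 5.9 in liver, 6.9 in lung, 7.52 in white adipose tissue and 5.37 in kidney. 3T3 was 216.8-fold above muscle (143.1 to 346.1), and mESC had 1242 CPM. On chromosome 6 minus at 36664930, 3T3 had 398.5 CPM and the wild-type tissues 0 to 1.57, with knockout heart at 16.9 CPM (54 tags) and the other knockout tissues at 0 to 3.05. This was the named site at which the choice of tissue libraries changed the ratio most, from 254.2 to 23.6. On chromosome 8 plus at 59993290, mESC was above 3T3, with 965.3 CPM against 228.6, and no wild-type tissue exceeded 0.602 CPM.

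On chromosome 19 plus, a site at 39042765 and one 2192 nt further downstream at 39044957 were both nearly empty in the tissues. The first had 303.5 CPM in 3T3 and 322.2 in mESC, and the second 51.3 in 3T3 and 399.2 in mESC. The tissues had at most 1.79 CPM at the first and 0.704 at the second. The cultured libraries thus had like levels at the upstream site and unlike levels at the downstream one.

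**Figure D2:**
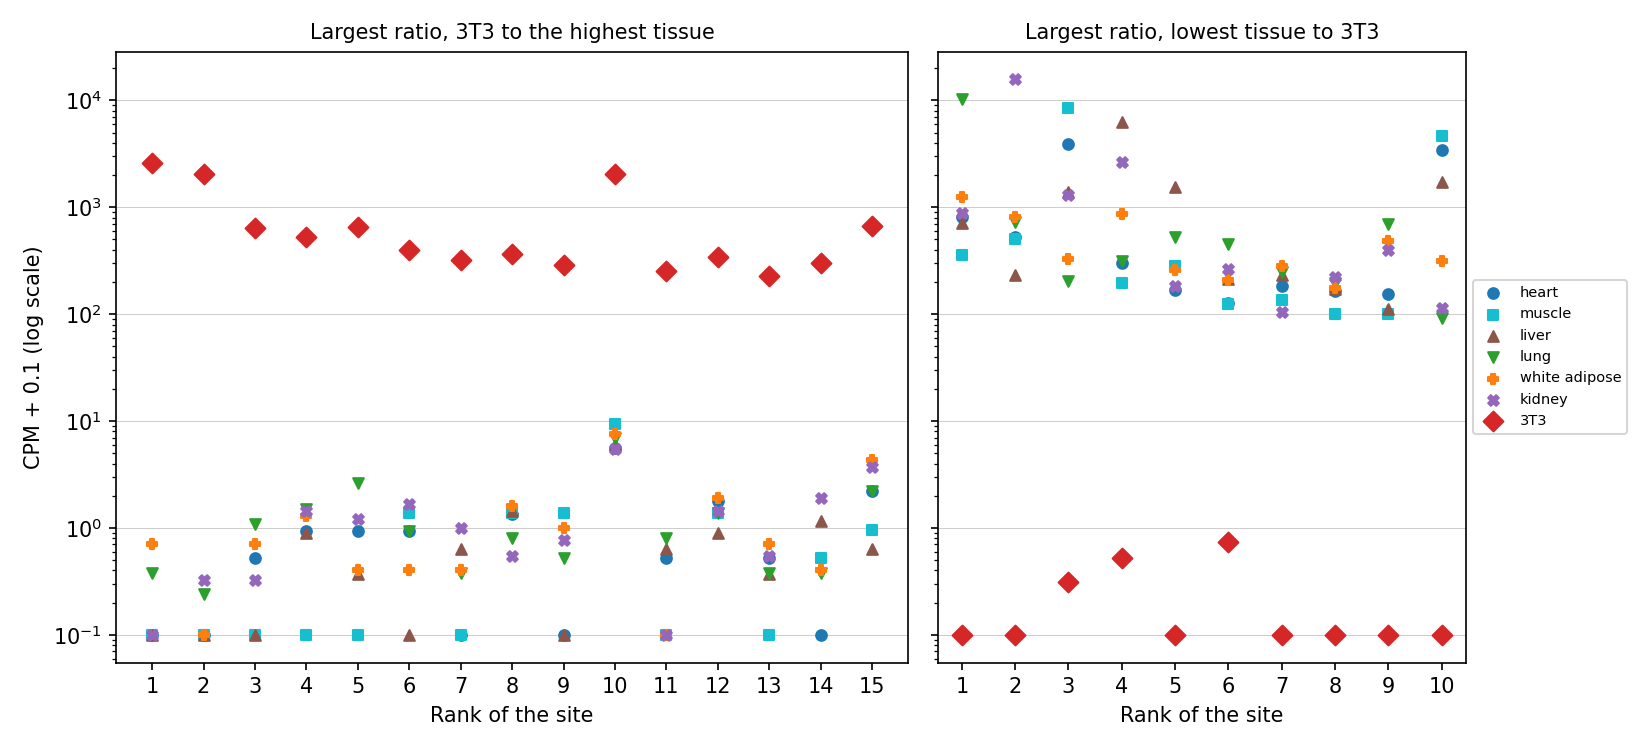
Levels in CPM plus 0.1 on a log scale in 3T3 (red diamonds) and the 6 tissues, for the 15 sites of largest ratio of 3T3 to the highest tissue (left) and the 10 of largest ratio of the lowest tissue to 3T3 (right), by rank. On the left 3T3 lies at 228.6 to 2621 CPM and no tissue exceeds 9.35, and on the right 3T3 lies at 0 to 0.636 CPM.

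The most abundant sites of 3T3 were of another kind, since the tissues used them as well. The first of all, on chromosome 15 plus at 78760623, held 8.77% of the 3T3 tags. It had 78753 CPM in 3T3, 2032 in heart, 2927 in muscle, 24.4 in liver, 565.0 in lung, 13048 in white adipose tissue and 326.7 in kidney. 3T3 was 6.04-fold above white adipose tissue (5.98 to 6.1), and the tissues themselves spanned from liver to white adipose tissue a wider range than that. mESC had 2866 CPM. Next came a mitochondrial entry with 57992 CPM in 3T3, which lay inside the tissue range of 8357 in lung to 183652 in muscle. Its position is 3843, but its merged intervals run from 2141 to 4807. The level thus sums tags over that whole stretch and is not that of a single poly(A) site.

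White adipose tissue was also the nearest tissue at the site on chromosome 2 plus at 13504452. It had 11204 CPM in 3T3, 1133 in white adipose tissue, 447.5 in lung, 194.6 in heart, 142.0 in muscle, 22.4 in kidney and 12.6 in liver, a ratio of 9.89 (9.57 to 10.2). On chromosome 3 plus at 93368564, 3T3 had 6095 CPM and the tissues 79.1 in muscle to 731.5 in white adipose tissue, a ratio of 8.33 (7.99 to 8.69). mESC, at 298.0 CPM, was inside the tissue range there. On chromosome 15 plus at 76736741, 3T3 had 10887 CPM and the tissues 824.7 to 2443, while mESC reached 12005.

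A pair of sites on chromosome 3 plus, 8373 nt apart, were both high in 3T3 but not alike in the tissues. The upstream site at 90409962 had 3767 CPM in 3T3, 4.61 in heart, 20.4 in muscle, 1.34 in liver, 15.6 in lung, 30.4 in white adipose tissue and 5.37 in kidney, a ratio of 124.0 (102.0 to 152.3). The downstream site at 90418335 had 5316 CPM in 3T3, 171.5 in heart, 251.6 in muscle, 8.32 in liver, 882.2 in lung, 631.3 in white adipose tissue and 126.3 in kidney, a ratio of 6.03 (5.86 to 6.2). mESC had 56.8 CPM at the first and 2103 at the second. Liver was the lowest tissue at each of these sites.

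Other abundant sites with a large excess in 3T3 were on chromosomes 11 and 5. On chromosome 11 plus at 62418309, 3T3 had 3462 CPM and the tissues 28.9 in white adipose tissue to 94.6 in lung, a ratio of 36.6 (33.9 to 39.6). On chromosome 5 plus at 144182952, 3T3 had 3660 CPM, and liver was the highest tissue at 243.6, a ratio of 15 (14.1 to 16.1). A site 797 nt upstream of it, at 144182155, was high in 3T3 as well, with 310.1 CPM against 5.45 to 64.4 in the tissues. On chromosome 11 minus at 120439418, 3T3 had 4102 CPM and the tissues 36.1 to 549.6, with mESC at 5027. Its ratio was 7.46 (7.21 to 7.73), and 12.8 against the knockout tissues.

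Sites that were nearly empty in 3T3 were abundant in all tissues but highest in different ones. On chromosome 17 plus at 87232748, 3T3 had 0 tags, against 814.1 CPM in heart, 356.6 in muscle, 716.9 in liver, 10290 in lung, 1255 in white adipose tissue and 878.6 in kidney. Taking 3 tags as the limit that a count of 0 allows, 3T3 was at least 560.5-fold below the lowest tissue, muscle, and at least 291.4-fold with libraries scaled by total tags. On chromosome 11 plus at 54723877, 3T3 again had 0 tags, against 15757 CPM in kidney and 234.7 to 818.7 in the other tissues, so it was at least 369.0-fold below liver. mESC was low at each of these, with 11.6 and 7.83 CPM.

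On chromosome 10 plus at 75400490, 3T3 had 1 tag and muscle 8497 CPM, with 3922 in heart, 1396 in liver, 205.4 in lung, 329.6 in white adipose tissue and 1313 in kidney. The ratio of the lowest tissue, lung, to 3T3 was 968.4 (173.5 to 38277), or 322.8 with 3T3 raised to 3 tags, which was 489.8 against the knockout tissues. On chromosome 15 plus at 3230506, 3T3 had 2 tags and liver 6286 CPM, with 195.1 to 2655 in the other tissues, a ratio of 460.0 from muscle (126.6 to 3810). With 3T3 raised to 3 tags it was 306.7, and 159.4 with total tags or 189.7 against the knockout tissues. On chromosome 14 minus at 52524957, 3T3 had 0 tags, muscle 4648 CPM, heart 3436 and liver 1736, and the other 3 tissues 91.5 to 313.7.

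Further sites without a 3T3 tag were not alike in mESC. On chromosome 18 plus at 15991871, 3T3 had 0 tags, against 163.6 CPM in heart, 100.3 in muscle, 172.0 in liver, 195.5 in lung, 176.8 in white adipose tissue and 223.2 in kidney. 3T3 was at least 157.7-fold below muscle, a bound of 82 with total tags and of 90.7 against the knockout tissues. mESC had 212.6 CPM there, inside the range of the tissues. On chromosome 1 plus at 94817148, 3T3 had 0 tags and the tissues 103.9 to 279.1 CPM, and mESC had 8.33. On chromosome 2 minus at 84605520, 3T3 had 0 tags, mESC 4 tags (1.01 CPM) and the tissues 168.6 CPM in heart to 1546 in liver. 3T3 and mESC thus differed at the chromosome 18 site and were both below the tissues at the others.

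Called sites were mostly single. The 1027 higher sites fell into 937 loci when sites within 10000 nt on a strand were joined, and 76 loci held at least 2. Of the 1027, 308 had another site with 20 CPM in some library 100 to 5000 nt away on the strand. A neighbour was called higher too for 139 of these, and for 113 a neighbour was not above the highest tissue. Among 263 lower nuclear sites, 67 had such a neighbour, which was called lower too for 10 and was not below the lowest tissue for 35. Over all 28185 sites, 3.64% were called higher and 0.947% lower. Of sites at 20 CPM or more in 3T3, 25% were called higher. Of those at 20 CPM or more in all tissues, 19% were called lower. A site can have several such neighbours, and any of them counted. Some differences were thus shared by a nearby site and others were not. The pairs below take adjacent sites only.

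Tandem pairs were taken as neighbouring sites on a strand 100 to 5000 nt apart. The distal share is the part of a pair's tags at the downstream site. It does not depend on library scaling or, within a gene, on how much that gene is expressed. Some pairs may join different genes. Of 10515 neighbouring pairs, 2778 had 20 tags or more in each of the 7 libraries, and 1965 of these had 5% to 95% of tags at the distal site on average over the libraries. The median distance was 628 nt, and a 3T3 pair had a median of 135.0 tags.

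3T3 used the proximal site more than the tissues did. The median distal share was 43.2% in 3T3, 50.9% in heart, 53.7% in muscle, 52.4% in liver, 57% in lung, 49% in white adipose tissue and 53.1% in kidney, so 3T3 was lowest. Pair by pair, 3T3 differed from the median of the tissues by a median of -3.33 points, and it was below that median in 1139 pairs (58%). The same difference for a tissue against the other 6 libraries was between -0.58 points in white adipose tissue and 1.84 in lung. The shift was an excess of one direction over the other and not a move of all pairs, since 825 pairs were above the tissue median.

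A pair was called more proximal in 3T3 when its distal share was at least 10 points under the lowest tissue, and more distal at 10 points or more over the highest. There were 373 more proximal pairs, which is 19% of 1965, and 196 more distal pairs, which is 9.97%. By the same rule a tissue had 20 to 53 more proximal pairs (1.02% to 2.7%) and 18 to 83 more distal ones (0.916% to 4.22%). Each tissue was set against all the other libraries, 3T3 included, so a 3T3 share further out could prevent its call. 3T3 was the lowest library of the 7 in 749 pairs (38.1%) and the highest in 462 (23.5%). It stood apart from the tissues in each direction, and more often on the proximal side. At 20 points the counts were 213 and 109, and at 50 points 40 and 16.

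Counting error and the choice of pairs bear on these counts. The 95% interval of 3T3 lay wholly below the intervals of all 6 tissues in 240 of the 373 pairs, and wholly above them in 119 of the 196. The pairs were called on the same shares, and no such count over all compared pairs is given here. These counts are thus a description only. Among the compared pairs, 97 met the limit on the mean share through 3T3 alone, and 48 of these were called more proximal and 26 more distal. Against the knockout tissues, 293 of the more proximal pairs had enough tags in all 6 libraries, and 253 of those were again at least 10 points under the lowest. For the more distal pairs this was 126 of 162.

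The proximal excess was larger for pairs that lay further apart. For 545 pairs at least 100 and under 300 nt apart, 16.3% were more proximal and 11% more distal, with a median difference of -1.08 points. For 713 pairs at least 300 and under 1000 nt apart the shares were 19.2% and 10.8%, and the median was -3.45 points. For 707 pairs 1000 to 5000 nt apart they were 20.8% and 8.35%, and the median was -4.66 points. The median distal share of 3T3 was 50%, 46.9% and 37.9% in these 3 classes. In the nearest class it lay among the tissues (48.1% to 53.7%), in the middle class under them (51.9% to 57.4%) and in the furthest class well under them (48.9% to 59.9%).

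**Figure D3:**
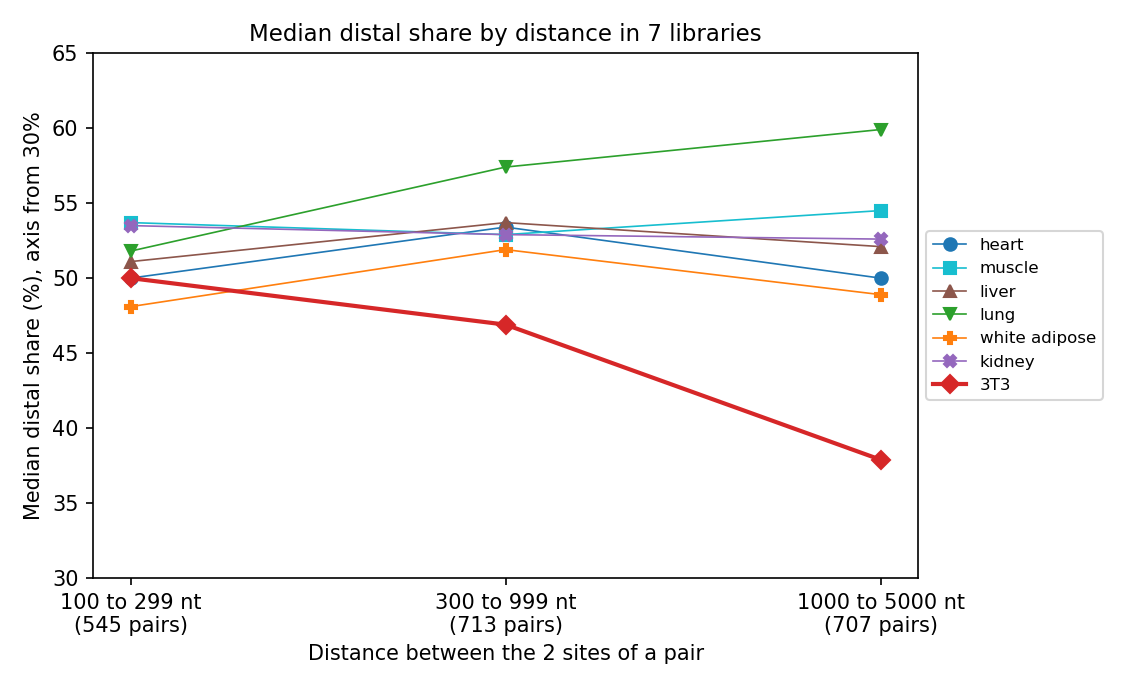
Median distal share in percent (vertical axis, from 30%) of tandem pairs in 3 classes of distance between the sites, 1 line per library. The red 3T3 line goes from 50% to 37.9% while the tissue lines stay between 48.1% and 59.9%.

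The levels of the sites in a called pair show which site differed. Among the 373 more proximal pairs, 135 had the proximal site above and the distal site below the range of the tissues. In 116 the proximal site was inside the range and the distal site below it, and in 90 the proximal site was above and the distal site inside. Over all 1965 pairs these patterns were seen in 184, 316 and 247. Among the 196 more distal pairs, 57 had the proximal site below and the distal site above. In 69 the proximal site was below and the distal inside, and in 42 the proximal was inside and the distal above. Over all pairs these were seen in 85, 212 and 167. The call itself limits which patterns can occur, so the counts are a description only. No single pattern of levels held for most of the pairs in either direction.

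The pair with the largest gap lay on chromosome 10 plus, at 61154596 and 61156042, 1446 nt apart. The distal site had 15.3% of the tags in 3T3 (7.88 to 25.7, 72 tags), against 99.5% in heart, 99.5% in muscle, 98.3% in liver, 98.9% in lung, 97.7% in white adipose tissue and 96.5% in kidney. The distal site itself had 2.33 CPM in 3T3 and 73.7 to 168.7 in the tissues, and the proximal one 12.9 in 3T3 and 0.839 to 3.01. The knockout tissues were at 98.2% to 99.6%, and mESC, at 24.1%, was near 3T3. The main site was thus the proximal one in 3T3 and the distal one in the tissues, and the level of the pair as a whole was lower in 3T3.

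On chromosome 16 plus, at 94690081 and 94690827, the distal share was 10.1% in 3T3 (7.45 to 13.3, 435 tags) and 89.3%, 98.6%, 88.9%, 99.3%, 96.1% and 95.8% in heart, muscle, liver, lung, kidney and white adipose tissue. Here the proximal site had 82.9 CPM in 3T3 and 0.141 to 2.52 in the tissues, while the distal site, at 9.33 CPM, was just under the tissue range of 11 to 30.6. mESC, with 65.4% of 26 tags, lay between. The distal site was thus near the tissues in level and the proximal one far above them.

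On chromosome 11 minus, at 21221947 and 21221676, the distal share was 11.3% in 3T3 (4.99 to 21, 71 tags) and 91.6% to 96.5% in the tissues. There the distal site was at 1.7 CPM in 3T3 against 75 to 875.7 in the tissues, and the proximal site was inside the tissue range. On chromosome 6 minus, at 87949798 and 87949476, the share was 16.4% in 3T3 (13.5 to 19.7, 585 tags) and 74.5% to 90.2% in the tissues, with 7.17% in mESC. The proximal site had 103.7 CPM in 3T3 against 4.25 to 16.2, and the distal site was just below the tissues. The pairs thus differed in which of their sites differed in level.

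At 3 further pairs the mESC value was below that of 3T3. On chromosome 2 plus, at 153227834 and 153229741, the distal share was 9.42% in 3T3 (5.11 to 15.6, 138 tags), 6.47% in mESC and 81.7% to 94.1% in the tissues. On chromosome 18 minus, at 64616919 and 64616197, it was 8.12% in 3T3 (4.96 to 12.4, 234 tags), 5.76% in mESC and 78.1% to 90% in the tissues. At both of these pairs mESC lay within the interval of 3T3. On chromosome 9 plus, at 74905884 and 74908117, it was 17.6% in 3T3 (9.47 to 28.8, 68 tags), 1.53% in mESC and 79.1% to 91.9% in the tissues. The eighth, on chromosome 11 plus at 98661806 and 98662363, had 31.6% in 3T3, 35.4% in mESC and 88.3% to 94.7% in the tissues.

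**Figure D4:**
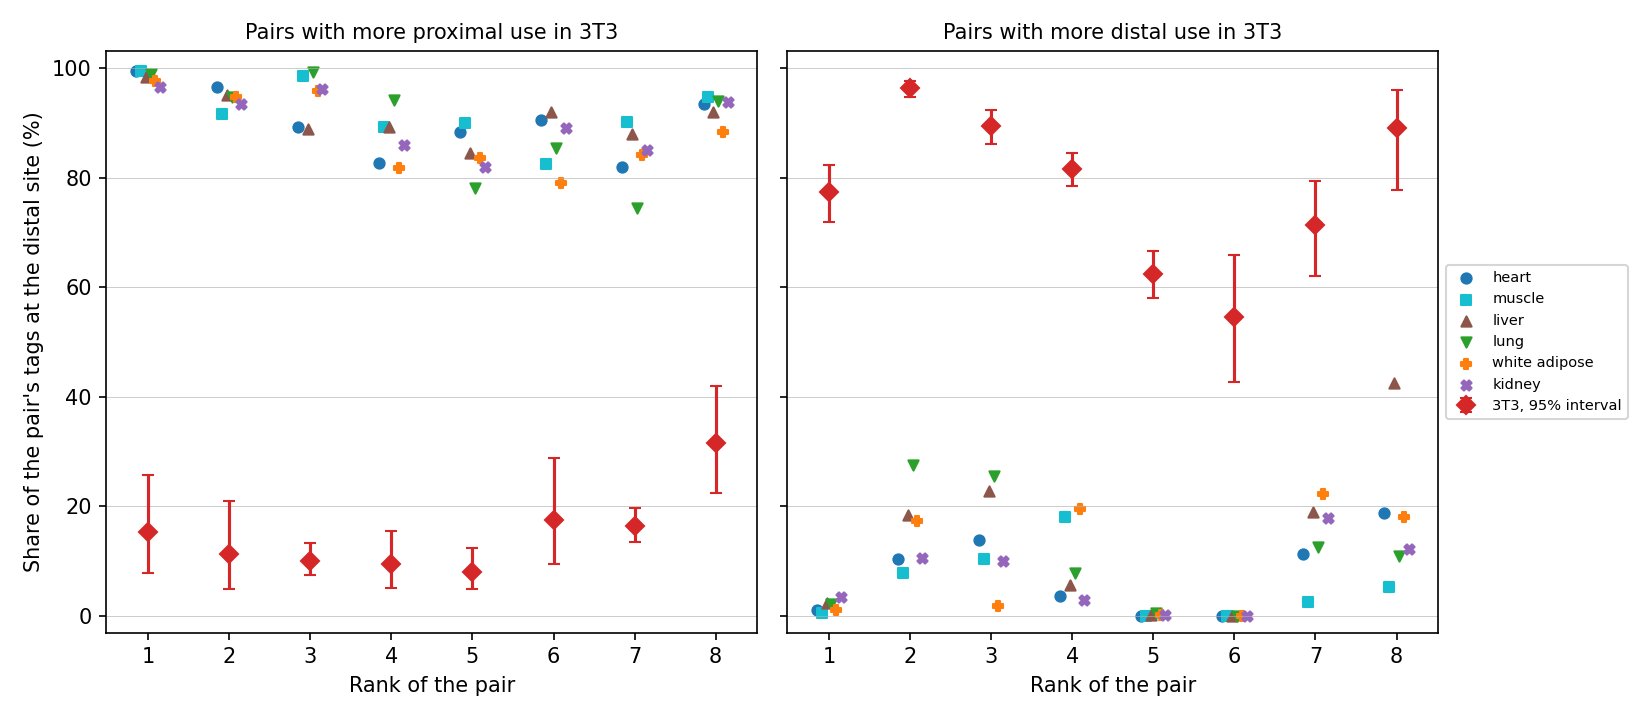
Distal share in percent of the 8 pairs per direction with the largest gap between 3T3 (red diamonds, with exact 95% intervals) and the nearest tissue, by rank, with 1 symbol per tissue. On the left 3T3 lies at 8.12% to 31.6% under tissues at 74.5% to 99.5%, and on the right at 54.5% to 96.4% over tissues at 0% to 42.6%.

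In the opposite direction the largest gap was on chromosome 9 plus, at 64026322 and 64026474, 152 nt apart. The distal site had 77.4% of the tags in 3T3 (71.9 to 82.3, 266 tags), against 1.05% in heart, 0.487% in muscle, 2.36% in liver, 2.18% in lung, 1.1% in white adipose tissue and 3.42% in kidney. The proximal site had 12.7 CPM in 3T3 and 442.5 to 1824 in the tissues, while the distal site had 43.7 against 6.62 to 15.7. mESC, at 85.9% of 1525 tags, was near 3T3. Both sites lay outside the tissue range, the proximal one by the larger factor.

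A like pattern was seen 149 nt apart on chromosome 1 plus, at 36750231 and 36750380. The distal share was 62.4% in 3T3 (58.1 to 66.6, 524 tags) and 0.0947%, 0.0444%, 0.123%, 0.514%, 0.281% and 0.129% in heart, muscle, liver, lung, kidney and white adipose tissue. The proximal site had 41.8 CPM in 3T3 and 190.7 to 4426 in the tissues, and the distal site 69.3 against 0.985 to 4.19. mESC, at 9.82%, lay between the tissues and 3T3. Every tissue was under 5% here too, so the pair met the limit on the mean share through 3T3 alone.

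On chromosome 15 plus, at 38621952 and 38622197, the share was 96.4% in 3T3 (94.7 to 97.7, 641 tags), 84.9% in mESC and 7.89% to 27.5% in the tissues. On chromosome 4 minus, at 41661981 and 41659064, it was 89.5% in 3T3, 51.4% in mESC and 1.86% in white adipose tissue to 25.5% in lung. On chromosome 18 plus, at 36957934 and 36958326, it was 81.6% in 3T3, 61.9% in mESC and 2.89% to 19.6% in the tissues. 3T3 was above mESC at each of these, and the tissues were below both.

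The remaining 3 more distal pairs were 1369 to 4943 nt apart. On chromosome 2 plus, at 172206578 and 172207947, the distal site had 54.5% of 77 tags in 3T3 and none of the 104 to 218 tags in each tissue, which allows up to 3.48% in muscle by the same interval. This pair, too, met the limit on the mean share through 3T3 alone, and mESC had 85.7%. On chromosome 5 plus, at 110652171 and 110655485, the share was 71.3% in 3T3, 83.3% in mESC and 2.59% to 22.2% in the tissues. On chromosome 15 plus, at 79498087 and 79503030, it was 89.1% of 55 tags in 3T3, 98.2% in mESC and 5.38% to 42.6% in the tissues, with liver highest.

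The chromosomes did not share evenly in the differences. For each library the log2 ratio of a site to the median of the other 6 libraries was taken over a part of the nuclear sites. Its median on a chromosome was set against the library's own median over those sites. They numbered 5426 for 3T3 and 4408 to 5205 for a tissue, so the libraries are compared over unlike sets of sites. In 3T3 the chromosome medians ran from -0.77 on chromosome 9, -0.66 on 14 and -0.59 on 13 to 0.56 on 10, 0.58 on X and 0.65 on 15. That is a spread of 1.42 on the log2 scale, against 0.36 in lung to 0.84 in white adipose tissue. The median of 3T3 over all its sites taken was 1.03. Before this was subtracted, its chromosome medians were all positive, from 0.26 on chromosome 9 to 1.68 on chromosome 15. After the subtraction, 3T3 was the lowest library on 8 of the 20 chromosomes, against at most 3 for a tissue. It was the highest on 5, as were heart and kidney. Of the sites at 20 CPM or more in 3T3 or in the median of the tissues, 75 of 278 on chromosome 15 were called higher, against 36 of 284 on chromosome 9. Over all chromosomes it was 1027 of 5426. On chromosome 7, with a median of -0.382, it was 35 of 321, so the called shares did not strictly follow the medians.

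**Figure D5:**
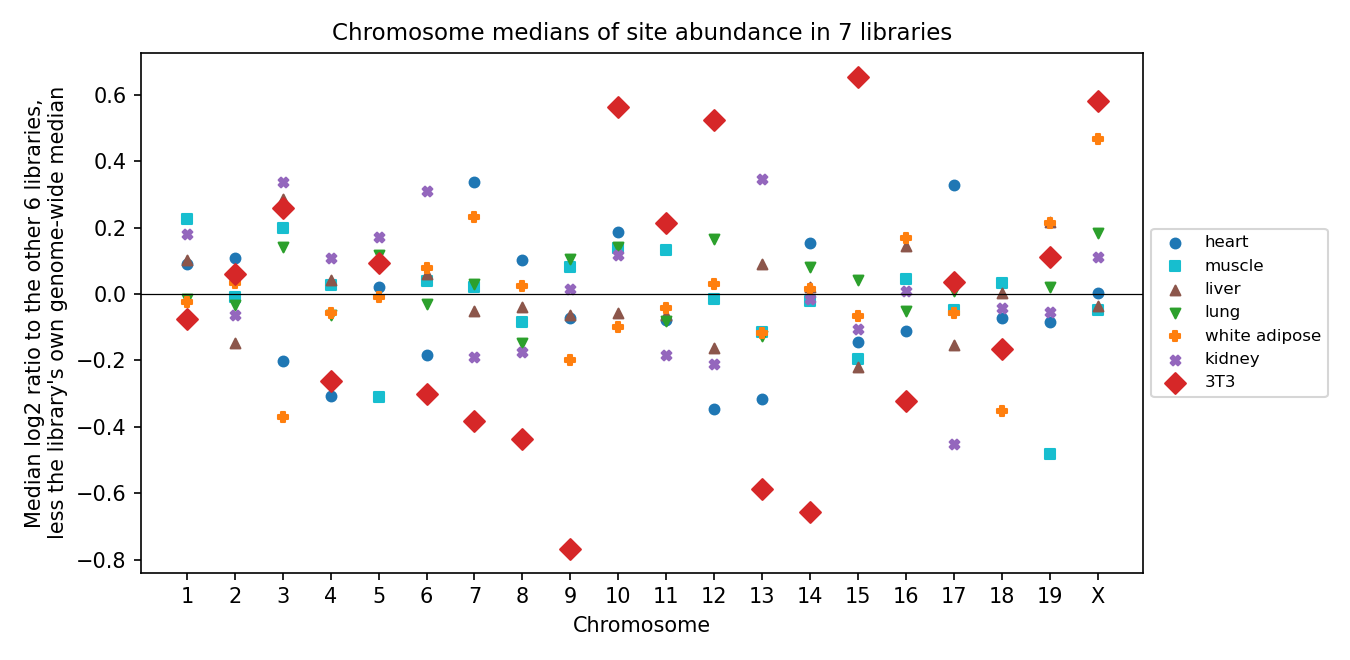
Median log2 ratio of site abundance to the median of the other 6 libraries, by chromosome, with 3T3 as red diamonds and 1 symbol per tissue. The median over all the nuclear sites taken for the same library was subtracted, and the sites taken differed between libraries. 3T3 spans -0.77 (chromosome 9) to 0.65 (chromosome 15), the widest range of the 7 libraries.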

How the data were processed

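Tags were base-called with CASAVA 1.7 and aligned with Bowtie to mm9, per the submitters' processing notes, without a Bowtie version. Each interval carries an estimated count of tags, unscaled, as the authors deposited it. How reads were grouped into intervals was not given in the sources used here. Between 1.21% and 5.79% of the values in the 7 libraries were not whole numbers.

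Same-strand intervals that overlapped or touched were merged over the 7 libraries, and their tags were summed and rounded. A site's position, counted from 1, is the 3′ end of its interval with most tags. Sites were kept by filterByExpr (minimum count 10, each library its own group) and scaled by TMM in edgeR 4.0.16 under R 4.3.3. Kept sites held 96.9% to 98.8% of the tags of a library. For the calls and the order of the named sites, the value a site is divided by (a tissue for higher sites, 3T3 for lower ones) was raised to 3 tags where it was under that. Intervals are exact 95% binomial (Clopper-Pearson) ones, for ratios on the tags of the 2 libraries. No molecular identifiers are recorded for the tags, which may not be independent molecules, so intervals and floors cover counting error only. With 1 library per group, no test was run. The steps were run on simulated counts that gave all tissues the same level at a site. This checks that the steps work and does not give the rate of false calls in these data.

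The members, thresholds and lists were chosen with earlier results of these data known. The sites named are those printed from the 15 of largest ratio at 50 CPM or more, the 10 most abundant called higher, the 10 of largest ratio lower and the 10 most abundant in 3T3. The pairs named are the 8 per direction with the largest gap at 50 tags or more in each library. The chromosome Y site and the neighbours of named sites were chosen after their values were seen. Lists of matrix, cell cycle, AP-1 and let-7 target genes could not be matched to sites, because no annotation of mm9 was used here. Knockout and mESC levels come from a joint scaling of the 14 libraries brought to the scale of the 7. Alternatives were total or nuclear tags, DESeq2 1.42.0 size factors, no filter, intervals within 25 nt merged, knockout tissues, stricter thresholds and leaving out each tissue.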

Additional observations from a re-analysis of the deposited data

Results flagged for a closer look

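The mESC library entered no call above and is quoted there as values. At 12 of the 15 sites of largest 3T3 ratio it was at 20 CPM or more and at least 4-fold above the highest of the wild-type and knockout tissues, a signal in a library the calls do not use. Of all 28185 sites, 1391 (4.94%) met that rule. The 15 sites were chosen for near-empty tissues, which the rule also uses, so the counts are a description only. By position, mESC had 124.0 CPM at 119798323, 459.1 at 68801052 and 355.3 at 127485691 on chromosome 10. On chromosome 19 it had 22.5 at 5455944 and 322.2 at 39042765. On chromosome 8 it had 360.6 at 4735977 and 965.3 at 59993290. It had 181.3 CPM on chromosome 5 at 124271593, 53.8 on chromosome 9 at 54620915 and 1242 on chromosome 15 at 43081598. It had 44.7 CPM on chromosome 14 at 66436656 and 116.2 on chromosome 4 at 98602230. The 3 sites not in this group, on chromosomes 1, 6 and 10 at 40504987, 36664930 and 99563044, had 5.05, 5.81 and 3.79 CPM in mESC. These values and those of 3T3 are set against the same tissue libraries. The longest interval was 32 nt in 3T3 and mESC alike and 36 nt in all the tissue libraries, and the part of this was not tested.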

How the results depend on the processing

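No paired analysis was possible because the labels give 1 library per group and no replicate number. Under other scalings, no filter, wider merging and knockout tissues, the counts of higher and lower sites stayed within 1.5 times, at 1000 to 1243 and 211 to 263. The share of higher among called sites was 79.4%, and 80.2% to 83.2% under other scalings. Total tags moved the log2 ratio of 3T3 to a tissue by -0.47 in lung to 0.94 in muscle. At 8-fold, 548 sites were higher and 175 lower, and at 50 CPM 113 were lower. With 50 tags in each library, 109 of 608 pairs were more proximal and 63 more distal, and with no filter, where other neighbours form the pairs, 97 and 79 of 674. The median difference of the distal share was -5.01 points with a minor site of at least 10%. Limiting the minor site in the tissues alone, added after seeing the data, gave 325 and 170 of 1900 pairs and -3.07 points. With no filter Spearman's rho was 0.368 for heart, 0.425 for muscle, 0.335 for liver, 0.386 for lung, 0.439 for white adipose tissue and 0.370 for kidney.

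Leaving out each tissue in turn gave 1056 to 1201 higher sites, 290 to 335 lower sites, 397 to 459 more proximal pairs, 205 to 243 more distal pairs and a median difference of -3.79 to -3.02 points. All 35 sites of the lists of largest ratio, most abundant higher and lower sites kept at least a 4-fold difference under total tags, size factors and knockout tissues, the smallest being 4.35. The 16 named pairs lay 35.7 to 82.9 points outside the knockout tissues. At 20 tags in a pair a share has a wide interval, and sites near 3 tags cannot be told from empty ones.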
